A study of Mus musculus with 5 samples.

Results

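The mouse Akr1b genes encode aldose reductase and its closest relatives, a family of the aldo-keto reductases. The 4 members measured here, Akr1b3, Akr1b7, Akr1b8 and Akr1b10, were chosen by gene symbol and are 4 of 51912 genes listed for each library. All 4 were kept by the low-count filter, which left 18590 genes to test. Total RNA was sequenced from the dorsolateral prostate of male mice aged 3 months. Every mouse was homozygous for a loxP-flanked growth hormone receptor gene (Ghrflox/flox) and was given 250 mg/kg of tamoxifen a day for 5 days, with tissue taken 1 month after the last dose. The 3 control libraries came from Ghrflox/flox mice, and the 2 libraries labelled Ghr deletion were from mice with, in addition, a Cre activated by tamoxifen at the ROSA26 locus (Ghrflox/flox;ROSA26Cre-ERT2+/0). ROSA26 drives expression in most cell types, so the Cre was not limited to prostate epithelium. Deletion-labelled libraries are those labelled Ghr deletion. The comparison asks how the family differs between the prostates labelled Ghr deletion and the controls that received the same tamoxifen course.

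Aldo-keto reductases use NADPH to reduce aldehydes and ketones to alcohols. Akr1b3 is mouse aldose reductase, which turns glucose into sorbitol at the entry to the polyol pathway. Akr1b7, also called mouse vas deferens protein, is abundant in the vas deferens, where it depends on androgen, and in the adrenal cortex, where it depends on corticotropin, and it reduces aldehydes released by lipid breakdown and steroid synthesis. Akr1b8, also called FR-1, was found as a gene induced by fibroblast growth factor, and Akr1b10 is a further reductase of the same cluster. Akr1b3 and Akr1b7 are also known as prostaglandin F synthases.

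The 4 genes lie together on chromosome 6 (GRCm38, GENCODE M21), and the cluster spans 120.7 kb from the start of Akr1b3 to the end of Akr1b7. Akr1b3 (ENSMUSG00000001642) occupies chr6:34302434-34317478 on the minus strand. The other members are on the plus strand, with Akr1b8 (ENSMUSG00000029762) at chr6:34354119-34368463, Akr1b10 (ENSMUSG00000061758) at chr6:34384218-34396950 and Akr1b7 (ENSMUSG00000052131) at chr6:34412334-34423142. Each has a coding length of 948 bases in its main transcript. Akr1b7 and Akr1b10 shared 89.2% of aligned coding bases, Akr1b7 and Akr1b8 shared 85.7%, and Akr1b8 and Akr1b10 shared 85.4%. Akr1b3 was more distant, at 73.0%, 72.1% and 72.9% identity to Akr1b7, Akr1b8 and Akr1b10. The longest run of identical bases between main transcripts was 59 for Akr1b7 with Akr1b10, 52 for Akr1b7 with Akr1b8 and 80 for Akr1b8 with Akr1b10.

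The upstream sequences of the 3 plus-strand genes are shown because neighbours with similar coding sequence had very different levels, described below. The sequences are from RefSeq (GRCm38.p6), plus strand, and end at the base before the GENCODE start of each gene. They cover chr6:34412112-34412333 for Akr1b7, chr6:34383997-34384217 for Akr1b10 and chr6:34353896-34354118 for Akr1b8. Akr1b3 was not matched in the promoter table. Capitals mark TGTTCT, the core hexamer of steroid hormone response elements.
Akr1b7: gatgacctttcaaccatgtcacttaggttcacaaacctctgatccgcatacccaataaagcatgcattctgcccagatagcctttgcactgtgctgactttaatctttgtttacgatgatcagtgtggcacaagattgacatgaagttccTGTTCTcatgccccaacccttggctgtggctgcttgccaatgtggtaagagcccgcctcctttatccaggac
Akr1b10: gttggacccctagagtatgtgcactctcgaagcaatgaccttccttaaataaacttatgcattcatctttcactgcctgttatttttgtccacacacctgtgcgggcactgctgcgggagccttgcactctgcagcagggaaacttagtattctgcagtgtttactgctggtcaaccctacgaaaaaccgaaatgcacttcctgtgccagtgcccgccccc
Akr1b8: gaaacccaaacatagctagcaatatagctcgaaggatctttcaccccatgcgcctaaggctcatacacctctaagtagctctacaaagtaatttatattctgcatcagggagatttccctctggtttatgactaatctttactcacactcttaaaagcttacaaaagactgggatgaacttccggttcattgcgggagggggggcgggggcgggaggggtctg

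The hexamer TGTTCT, searched on both strands, occurred once in the Akr1b7 stretch, starting 72 bases before the GENCODE start, and was not found in the windows of Akr1b8 and Akr1b10. Of 32851 RefSeq promoter windows, 19.0% held it. TGACNNNGC, the core of the antioxidant response element, and TGGAAA, the core of the osmotic response element, were held by 12.4% and 21.4% of all windows and were not found in any of the 3. Over the aligned bases, the upstream stretch of Akr1b7 was 64.0% identical to that of Akr1b10 and 64.5% identical to that of Akr1b8. A match to such short letters describes the sequence and does not show binding.

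The controls differed among themselves: marker genes of distal luminal prostate epithelium summed to 10487, 2592 and 266 TPM (a level per length, relative to all transcripts of a library) in control replicates 1 to 3 and to 468 and 391 TPM in Ghr deletion replicates 1 and 2. The secreted proteins Spink1 and Ceacam10 carried the 2 high sums, Spink1 with 5616.66, 699.24 and 4.13 TPM in controls, against 0 and 2.11 TPM in deletion-labelled libraries, and Ceacam10 with 4695.81, 1501.98 and 12.56 TPM, against 3.75 and 8.97 TPM. Not all genes of the list went that way. The luminal keratin Krt18 had 79.98, 33.8 and 143.65 TPM in controls, against 278.06 and 185.42 TPM in deletion-labelled libraries. In CPM (counts relative to the TMM-scaled library size) Krt18 was near level. It had 236, 224 and 291 CPM in controls, against 291 and 263 CPM in deletion-labelled libraries (log2 fold change 0.15 with SE 0.24). Probasin (Pbsn), a defining dorsolateral prostate secretion, had 6.6, 122.76 and 0.7 TPM in controls, against 0.08 and 10.79 TPM in deletion-labelled libraries, so this marker was near 0 in control replicate 3 and Ghr deletion replicate 1. Ghr itself was not lower where its deletion is labelled, with 10.1, 11.8 and 13.2 CPM in controls, against 21.5 and 10.2 CPM in deletion-labelled libraries, counted over the whole gene. Control replicate 3 was thus nearer to the deletion-labelled libraries than to the other controls in Spink1 and Ceacam10, as in Akr1b7 below, and whether its dissection or label differed was not tested. The group comparison of every member rests on taking it as a control, and values without it are given. Depth ran from 19517831 to 41553558 expected counts a library.

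Akr1b7 was the member that varied most. It was nearly silent in 2 of the 3 controls and among the most abundant genes in the third control and in both deletion-labelled libraries. Expected counts were 29, 123 and 42914.99 in control replicates 1 to 3 and 15474 and 51858.97 in Ghr deletion replicates 1 and 2. In CPM these were 1.79, 6.32 and 946 in controls, against 351 and 1309 in deletion-labelled libraries. The value of control replicate 3 fell between those of the 2 deletion-labelled libraries, so the groups overlapped. The highest control was 529 times the lowest control in CPM, while the 2 libraries labelled Ghr deletion differed 3.73-fold. By deposited TPM, Akr1b7 ranked 11826, 7918 and 62 among all genes in controls, against 160 and 45 in deletion-labelled libraries.

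The group means of Akr1b7 were 318 ± 544 CPM (SD, n = 3) in the controls and 830 ± 677 CPM (SD, n = 2) in deletion-labelled libraries. Set over the controls, the log2 fold change was 1.38 (SE 2.198, 95% interval -4.03 to 6.79), and the quasi-likelihood test of edgeR over all genes gave an adjusted p of 0.909. The difference did not exceed the spread among controls. Of the 4 members, 0 had an unadjusted p under 0.05, and 2 had a log2 fold change above 0 and 2 below, against 49.3% and 50.5% of all genes. Across all genes edgeR called 0 genes, or 0% higher and 0% lower, at an adjusted p under 0.05, with 792 (4.26%; 1.16% higher and 3.1% lower) at an unadjusted p under 0.05, while DESeq2 called 20 higher and 59 lower and limma-voom called 0. The Akr1b7 value turned on 1 control library, while without control replicate 3 the log2 fold changes were -0.43 for Akr1b3, 0.49 for Akr1b8 and -0.23 for Akr1b10. For Akr1b7 it was 7.65 without that library (adjusted p = 0.0734 by edgeR), and with control replicate 3 as the only control it was -0.19 (adjusted p = 1). The counting error was small beside this, since an exact Poisson interval of 95% for the 29 counts of control replicate 1 ran from 1.20 to 2.57 CPM and that for the 123 counts of control replicate 2 from 5.25 to 7.54 CPM.

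**Figure D1:**
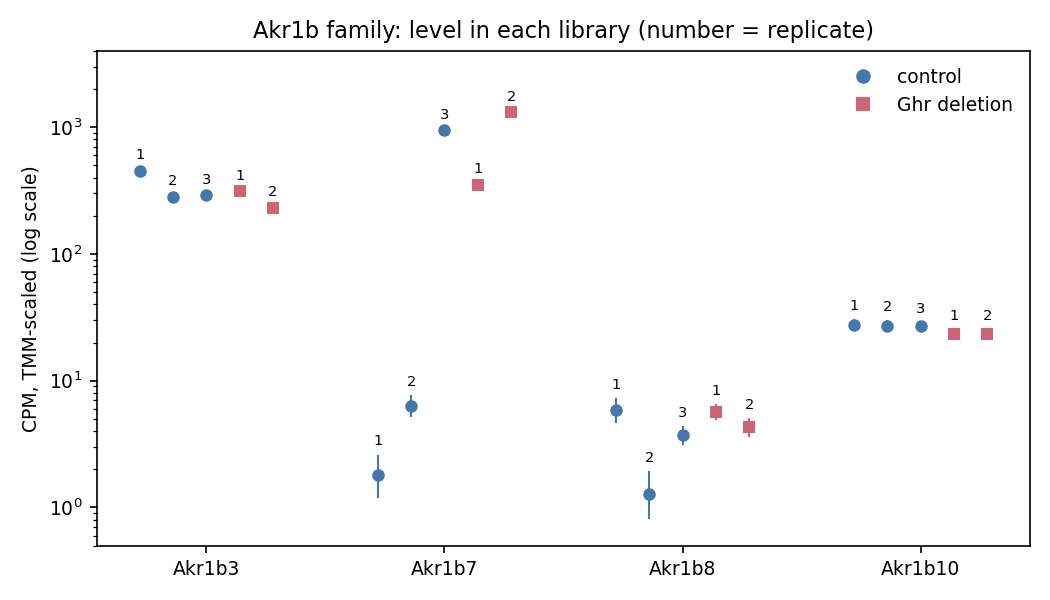
Level of the 4 Akr1b genes in each library as TMM-scaled CPM on a log axis, with controls as circles, libraries labelled Ghr deletion as squares, the replicate number above each point and vertical bars for the exact Poisson 95% interval (counting error only). Akr1b7 runs from 1.79 to 1309 CPM and its groups overlap, while Akr1b10 stays between 23.3 and 27.3 CPM.

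Akr1b3, aldose reductase, was abundant in every library and varied far less than Akr1b7, though more than Akr1b10. It had 452, 283 and 292 CPM in controls, against 313 and 231 CPM in deletion-labelled libraries. Ghr deletion replicate 1 lay above control replicates 2 and 3, and Ghr deletion replicate 2 was the lowest library. The means were 342 ± 95.2 CPM (SD, n = 3) and 272 ± 57.6 CPM (SD, n = 2), and the log2 fold change was -0.33 (SE 0.32, 95% interval -1.13 to 0.47, adjusted p = 0.874 by edgeR). In TPM, which has no TMM scaling, the order was different, with 153, 41.9 and 145 in controls, against 302 and 159 in deletion-labelled libraries. On log2(TPM + 1) the median of all genes moved to 0.87, and Akr1b3 stood at 1.16, which is 0.29 above it. On log2(TPM + 0.1) the median was 1.33 and Akr1b3 stood at 1.17, or -0.16 relative to it. Its side of the median in TPM thus depended on the pseudocount.

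Counts of Akr1b3 are uncertain because near-identical copies exist. Its main transcript matched 4 other annotated genes at 99% identity or more over at least 948 bases, namely Gm38056 (99.7%), Gm6644 (99.7%), Gm6736 (99.5%) and Gm12138 (99.1%), all but Gm38056 being processed pseudogenes. Gm38056 matched on the opposite strand and was given 134.52, 292.24 and 329.65 expected counts in controls, against 183.65 and 693.07 in deletion-labelled libraries, between 1.33% and 7.56% of the Akr1b3 count. Each of the 3 pseudogenes was given at most 2.2% of the Akr1b3 count in any library. The shares of Gm38056, Gm6644, Gm6736 and Gm12138 were all highest in Ghr deletion replicate 2, at 7.56%, 2.2%, 0.8% and 0.676%. The division of reads among such copies is itself an estimate, so these shares do not bound the uncertainty of the Akr1b3 counts. Its size was not tested.

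Akr1b10 had the tightest values. It had 27.3, 27.1 and 26.8 CPM in controls, against 23.3 and 23.4 CPM in deletion-labelled libraries. The means were 27.1 ± 0.263 CPM (SD, n = 3) and 23.4 ± 0.0695 CPM (SD, n = 2), and both libraries labelled Ghr deletion lay below every control. Of all tested genes, 12.5% lay below every control in that way and 10.8% lay above, so 1 such member among 4 is no result about the family. The log2 fold change was -0.21 (SE 0.17, 95% interval -0.63 to 0.21, adjusted p = 0.874 by edgeR). In TPM, which has no TMM scaling, the order turned round, with 10.8, 4.62 and 15.3 TPM in controls, against 25.1 and 18.7 TPM in deletion-labelled libraries. The difference was 1.14 on log2(TPM + 1), against the median of 0.87 for all genes, and 1.23 on log2(TPM + 0.1), against a median of 1.33. The log2 fold change of the counts was -0.23 with effective lengths as offsets and 0.39 with library size in place of TMM scaling.

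Akr1b8 had the lowest TPM of the 4 members in every library but control replicate 1, where Akr1b7 was lower. It had 5.86, 1.28 and 3.70 CPM in controls, against 5.67 and 4.29 CPM in deletion-labelled libraries. In CPM, control replicate 2 was the lowest library, at 25 expected counts, and control replicate 1 was the highest, so the groups overlapped. The means were 3.62 ± 2.29 CPM (SD, n = 3) and 4.98 ± 0.977 CPM (SD, n = 2), with a log2 fold change of 0.46 (SE 0.61, 95% interval -1.04 to 1.97, adjusted p = 0.89 by edgeR). That value was 0.98 without control replicate 1 and 0.07 without control replicate 2. In TPM, which has no TMM scaling, Akr1b8 had 2.06, 0.2 and 1.9 in controls, against 5.63 and 3.14 in deletion-labelled libraries. Both of these lay above every control, and the share of all genes that did so in TPM was not counted. The difference was 1.25 on log2(TPM + 1), against the median of 0.87 for all genes.

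**Figure D2:**
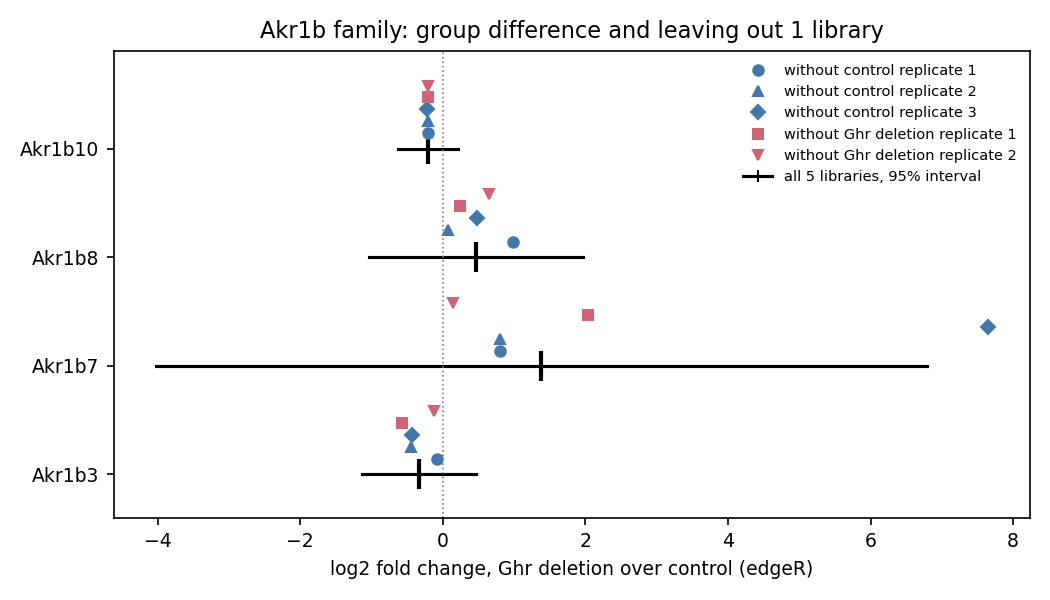
Log2 fold change of the libraries labelled Ghr deletion over controls for each member, with the black tick and line for the edgeR value and 95% interval from all 5 libraries and coloured symbols for the value after leaving out 1 library. Each interval crosses 0, and the value for Akr1b7 moves from 1.38 to 7.65 when control replicate 3 is left out.

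The make-up of the family therefore differed between libraries. The 4 members summed to 166, 47.8 and 683 TPM in controls, against 706 and 1208 TPM in deletion-labelled libraries. The means were 299 ± 338 TPM (SD, n = 3) and 957 ± 355 TPM (SD, n = 2), and an exact two-sided permutation test over samples gave p = 0.2, the smallest it can give with 3 against 2. Akr1b3 held 91.9% and 87.7% of the sum in control replicates 1 and 2 and 21.3% in control replicate 3, against 42.7% and 13.2% in deletion-labelled libraries. Akr1b7 held 0.409%, 2.22% and 76.2% in the controls and 52.9% and 85.0% in deletion-labelled libraries. Akr1b10 held between 1.55% and 9.67% of the sum and Akr1b8 between 0.26% and 1.24%. Without Akr1b7 the sum was 166, 46.7 and 162 TPM in the controls and 332.58 and 181.05 TPM in deletion-labelled libraries. Both of these lay above every control on the TPM scale, which has no TMM scaling. On that scale all genes were shifted, with a median of 0.87 on log2(TPM + 1). The share of all genes above every control in TPM was not counted. In CPM, Akr1b3 and Akr1b8 overlapped between groups and Akr1b10 lay below every control, as 12.5% of all tested genes did.

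**Figure D3:**
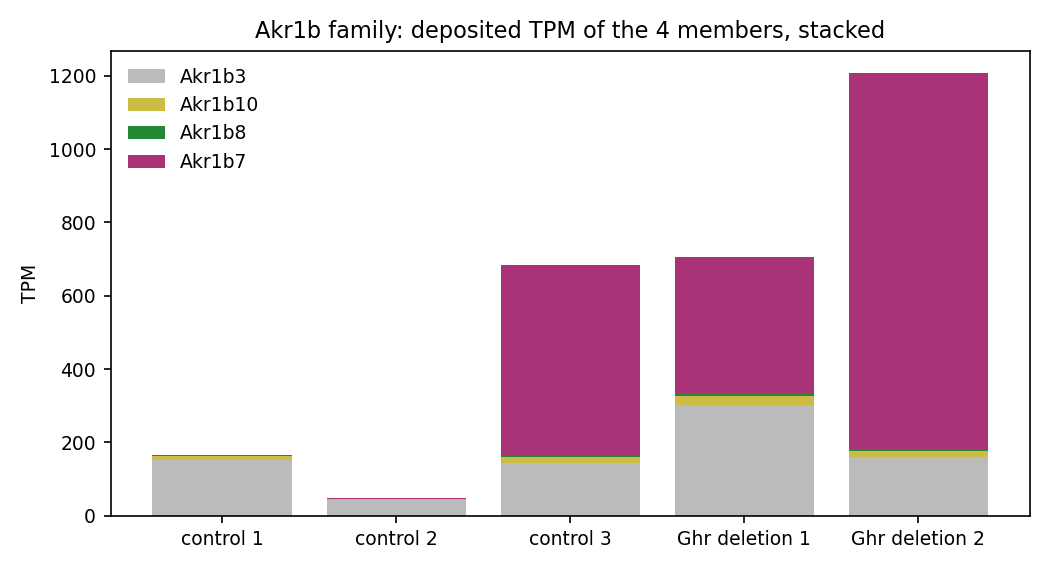
Deposited TPM of the 4 members stacked for each library, from 0. Akr1b3 makes up most of the bar in control replicates 1 and 2, and Akr1b7 makes up most of it in control replicate 3 (76.2%), Ghr deletion replicate 1 (52.9%) and Ghr deletion replicate 2 (85.0%).

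The neighbouring genes were examined next. The nearest protein-coding genes on either side are Slc35b4, a nucleotide sugar transporter, and Bpgm, which makes 2,3-bisphosphoglycerate. Between them the annotation lists 9 genes, the 4 members included. Slc35b4 had 26.2, 20.7 and 26.9 CPM in controls, against 29.9 and 37.8 CPM in deletion-labelled libraries (log2 fold change 0.46 with SE 0.22; edgeR adjusted p = 0.874). Bpgm had 615, 446 and 1334 CPM in controls, against 859 and 994 CPM in deletion-labelled libraries (log2 fold change 0.21 with SE 0.52; edgeR adjusted p = 0.937). Bpgm was thus lowest in the 2 controls where Akr1b7 was nearly silent, over a much smaller range. Gm13855, Gm14546, which is antisense to Akr1b3, and the unprocessed pseudogenes Gm13858 and Gm13859 had at most 10 expected counts in any library.

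The remaining neighbour, Gm13857, is a transcribed pseudogene on the minus strand (chr6:34419396-34445436) whose exons share 348 bases with the exons of Akr1b7. It had 0, 3 and 228.01 expected counts in controls, against 108 and 306.03 in deletion-labelled libraries. These were 0.531%, 0.698% and 0.59% of the Akr1b7 count in control replicate 3 and Ghr deletion replicates 1 and 2. The library kit keeps strand, but whether the counting used it is not given in the sources used here, so reads of the 2 genes in the shared stretch cannot be told apart.

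Genes with the pattern most like each member were listed by Pearson's r of log2(CPM + 1) over the 5 libraries, among 12232 other protein-coding genes whose log2 CPM averaged 1 or more. Each library has its own depth and tissue make-up, which all genes in it share, so r is given as a description with no test. For Akr1b7, 247 genes (2.02%) had r above 0.95, and the 3 highest were Kcnj16, an inward-rectifier potassium channel (r = 0.9999), Pik3r5, a regulatory subunit of phosphoinositide 3-kinase gamma (r = 0.9998), and Rasgrf1, a Ras exchange factor (r = 0.9995). Kcnj16 had 0, 0.514 and 14.1 CPM in controls, against 8.19 and 16.2 CPM in deletion-labelled libraries. Rasgrf1 had 1.11, 2.31 and 22.1 CPM and 13.8 and 23.4 CPM in the same order. These genes had control replicate 3 between the 2 libraries labelled Ghr deletion, as Akr1b7 did. For Akr1b3 the 3 highest were Qars, glutaminyl-tRNA synthetase, Litaf and Krtcap2, with r of 0.9997, 0.9993 and 0.999, among 85 genes (0.695%) above 0.95. For Akr1b8 they were Mtx2, a mitochondrial import protein, Twf1, an actin-binding protein, and Ptp4a2, a phosphatase, among 638 genes (5.22%), and for Akr1b10 they were Ppm1m, Gm17018 and Coq2, an enzyme of coenzyme Q synthesis, among 101 genes (0.826%).

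Because Akr1b7 is known from the vas deferens and the adrenal cortex, markers of those tissues were set beside it. The 15 genes listed for epididymis and vas deferens summed to 1.57, 2.2 and 454 TPM in controls, against 224 and 608 TPM in deletion-labelled libraries. Crisp1, a secreted protein of the epididymis that coats sperm, made up most of the 3 high sums, with 0.06, 0.41 and 422.62 TPM in controls, against 204.9 and 578.85 TPM in deletion-labelled libraries. Defb15, an epididymal defensin, had 0, 0.18 and 22.64 TPM and 9.78 and 17.43 TPM in the same order. Both were high in the 3 libraries where Akr1b7 was high. The epididymal lipocalins Lcn5, Lcn8, Lcn9 and Lcn10 and the defensin Defb41 were at 0 counts in every library. Gpx5, an epididymal glutathione peroxidase, had 0, 0 and 10 expected counts in controls, against 9 and 9 in deletion-labelled libraries. Pax8, Aqp9 and Adam7 were also higher in the 3 libraries where Akr1b7 was high. Pax8 had 0.74, 0.35 and 4.69 TPM in controls, against 5.36 and 5.01 TPM in deletion-labelled libraries. Aqp9 had 0.09, 0.03 and 2.06 TPM, against 1.85 and 3.94 TPM, and Adam7 had 0, 0 and 96 expected counts, against 9 and 139. Pax2, a transcription factor of the ducts, did not share this order, with 0.68, 1.23 and 1.04 TPM in controls, against 1.91 and 1.23 TPM in deletion-labelled libraries. In CPM Pax2 had 3.7, 15.2 and 4.21, against 3.43 and 3.26. Of the 15 genes, 4, 5 and 8 were above 0 in controls, against 9 and 9 in deletion-labelled libraries. The part of such tissue in the Akr1b7 values was not tested. In a bulk sample, a different number of cells of one kind and a different amount of RNA per cell cannot be told apart.

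Markers of adrenal cortex and Leydig cells were low. Cyp11a1, the side-chain cleavage enzyme that starts steroid synthesis, had at most 5 expected counts in any library, and Hsd3b1 had 0. Cyp21a1, steroid 21-hydroxylase, had 0.03, 0.05 and 3.9 TPM in controls, against 1.38 and 3.31 TPM in deletion-labelled libraries. The 8 genes of the list summed to 5.47 TPM or less in every library. The seminal vesicle list summed to 321189, 68401 and 167607 TPM in controls, against 124961 and 168648 TPM in deletion-labelled libraries, and Svs1 within it had 5177.03, 1590.86 and 13.36 TPM in controls, against 0.02 and 2.58 TPM in deletion-labelled libraries. The list leaned to lower values but was not of one direction. In CPM, 6 of its 8 genes lay below every control in both deletion-labelled libraries, against 12.5% of all tested genes. The median log2 fold change was -7.48, against -0.006 for all tested genes. Svs1, Svs3a, Svs3b, Svs4 and Svs6 were higher in each of the 2 controls where Akr1b7 was nearly silent than in any other library. Svs5 had this order in CPM, with 148704, 76179 and 56115 in controls, against 12797 and 32765 in deletion-labelled libraries, but not in TPM. Svs2 and Pate4 were lower in these 2 controls in TPM, but not in both of them in CPM. Svs2 had 19180.06, 5890.14 and 58008.38 TPM in controls, against 53233.04 and 69923.18 TPM in deletion-labelled libraries, and Pate4 had 9902.74, 2177.14 and 22682.89 TPM, against 27776.68 and 29705.13 TPM. In CPM Svs2 had 68572, 47338 and 140510 in controls, against 67744 and 118601 in deletion-labelled libraries (log2 fold change 0.12 with SE 0.97). Pate4 had 21112, 10520 and 33092 CPM, against 20932 and 30450 CPM (log2 fold change 0.25 with SE 0.76). The proximal luminal prostate list summed to 116, 34 and 945 TPM in controls, against 4691 and 1062 TPM in deletion-labelled libraries. Clu, clusterin, carried this sum, with 68.99, 21.64 and 896.14 TPM in controls, against 4455.23 and 998.11 TPM in deletion-labelled libraries. Krt7, a keratin of the same list, had 8.18, 3.66 and 3.82 TPM, against 4.91 and 4.64 TPM. In CPM Krt7 had 43.9, 37.0 and 12.6 in controls, against 8.71 and 11.8 in deletion-labelled libraries. It was thus highest in the 2 controls where Akr1b7 was nearly silent. The part of seminal vesicle or proximal prostate tissue in the Akr1b7 values was not tested.

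**Figure D4:**
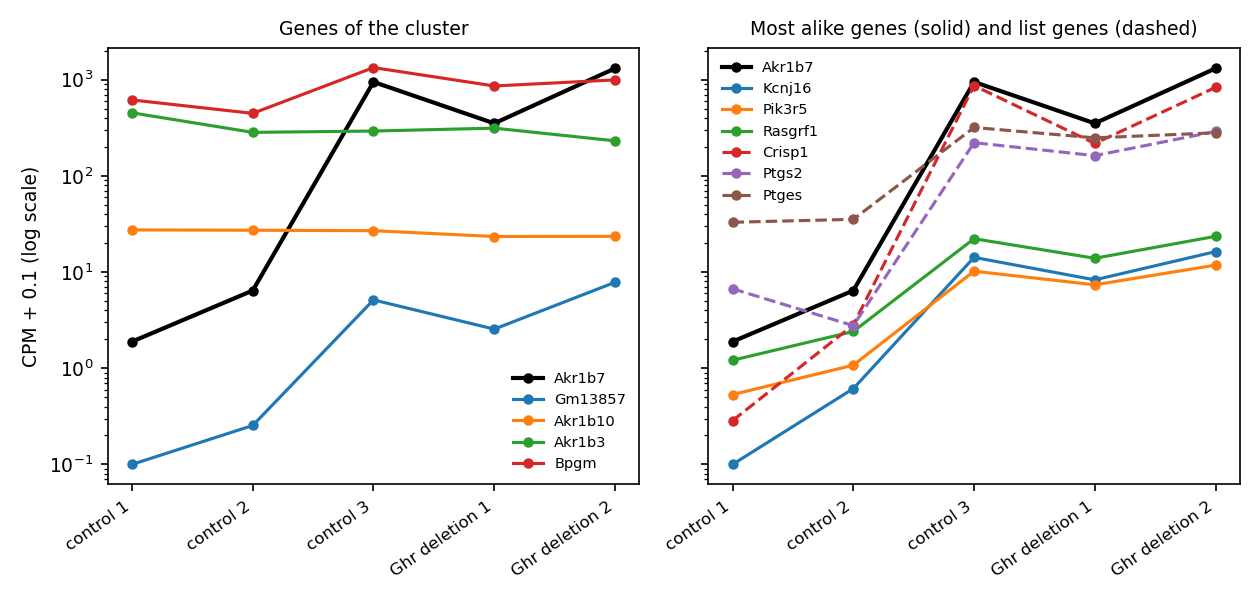
CPM plus 0.1 on a log axis in each of the 5 libraries, with genes of the cluster on the left and, on the right, the 3 genes most alike to Akr1b7 (solid) and Crisp1, Ptgs2 and Ptges (dashed). Lines only join the points of 1 gene, and all genes on the right are lower in control replicates 1 and 2 than in the other 3 libraries.

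The pathways in which the family works were examined through 8 lists, and edgeR called 0 members of any list, as it called 0 of all tested genes. In the prostaglandin list, the 10 tested genes had a median log2 fold change of 0.47, against -0.006 for all tested genes. Ptgs1, a constitutive cyclooxygenase, had 33.6, 32.4 and 86.0 CPM in controls, against 88.8 and 123 CPM in deletion-labelled libraries (log2 fold change 1.06 with SE 0.48; edgeR adjusted p = 0.874). Ptges, prostaglandin E synthase, had 32.8, 35.2 and 318 CPM and 248 and 280 CPM in the same order, and Hpgd, which breaks prostaglandins down, had 105, 74.4 and 248 CPM and 179 and 243 CPM. Ptgds, prostaglandin D synthase, was high in control replicate 3 alone, at 25.4 CPM against 1.3 to 3.03 CPM elsewhere. Ptgs2, the inducible cyclooxygenase, and the transporter Slco2a1, named after their values were seen, had 6.60, 2.67 and 221 CPM and 64.5, 73.8 and 281 CPM in the controls, against 162 and 289 CPM and 207 and 215 CPM in deletion-labelled libraries. For Ptges, Ptgs2, Hpgd and Slco2a1 the 2 controls with little Akr1b7 were also the lowest libraries, and control replicate 3 stood with the libraries labelled Ghr deletion or above them. Ptgfr, the prostaglandin F receptor, had 3.46, 0.205 and 1.68 CPM in controls, against 3.72 and 0.833 CPM in deletion-labelled libraries.

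In the list of glucose entry, polyol pathway and fructose genes, none passed the test. The 8 tested genes, which include the glucose transporter Slc2a1 and the hexokinases Hk1 and Hk2, had a median log2 fold change of -0.26. Sord, which turns sorbitol into fructose, had 251, 239 and 385 CPM in controls, against 230 and 265 CPM in deletion-labelled libraries (log2 fold change -0.24 with SE 0.30; edgeR adjusted p = 0.889). Khk, the fructokinase, and Tkfc, which acts on glyceraldehyde, had differences on the log2 scale of -0.28 (SE 0.27) and -0.38 (SE 0.31), and Glyctk, glycerate kinase, had -0.61 (SE 0.61).

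Akr1b3 is a known target of Nfat5, the transcription factor of osmotic stress, so genes of osmolyte transport were listed with it. Of 7 tested genes, 2 lay above every control in both deletion-labelled libraries, against 10.8% of all genes. These were Slc38a2, an amino acid transporter, with 119, 102 and 136 CPM in controls, against 182 and 169 CPM in deletion-labelled libraries, and Slc5a3, the myo-inositol transporter, with 82.8, 76.8 and 121 CPM and 137 and 145 CPM. Their log2 fold changes were 0.57 (SE 0.21) and 0.59 (SE 0.26), with an adjusted p of 0.874 for both by edgeR. Slc6a6, the taurine transporter, went the other way among libraries, with 340, 273 and 80.7 CPM in controls, against 128 and 86.8 CPM in deletion-labelled libraries, and its groups overlapped. Hspa1b, a heat shock protein, had -0.24 (SE 0.21), and Nfat5 itself had a log2 fold change of -0.02 (SE 0.32). The list's median was -0.06.

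Genes of aldehyde and oxidant defence, which act beside the reductases, had a median log2 fold change of 0.21 over 20 tested genes. Of these, 7 lay above and 1 lay below every control in both deletion-labelled libraries, where the shares over all genes were 10.8% and 12.5%. Mgst1, a microsomal glutathione transferase, had 12.3, 15.3 and 46.7 CPM in controls, against 63.7 and 86.0 CPM in deletion-labelled libraries (log2 fold change 1.59 with SE 0.59; edgeR adjusted p = 0.874). Srxn1, sulfiredoxin, had 15.8, 6.88 and 16.9 CPM and 21.3 and 24.8 CPM in the same order, and Cbr3, a carbonyl reductase, had 2.04, 1.44 and 1.65 CPM and 2.77 and 2.85 CPM. Keap1, which holds the transcription factor Nrf2 in check, was the gene below every control, with 26.2, 27.2 and 28.0 CPM and 20.6 and 21.2 CPM. In the retinoid list the 11 tested genes had a median of 0.40, and Lrat, which esterifies retinol, had 1.36 (SE 0.56) at levels under 1 CPM. Aldh1a1, which oxidises retinaldehyde, had 0.69 (SE 0.37), Dhrs3, which reduces it, had -0.35 (SE 0.20), and Crabp2, which binds retinoic acid, had 1.26 (SE 0.76).

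Of 16 other aldo-keto reductases listed, 10 were tested, and their median log2 fold change was 0.25. Akr1a1, aldehyde reductase, had a difference of -0.04 on the log2 scale (SE 0.24). Akr1cl had 0, 0.308 and 1.90 CPM in controls, against 5.49 and 3.81 CPM in deletion-labelled libraries, and Akr1c14, a hydroxysteroid dehydrogenase, was high in Ghr deletion replicate 1 alone, at 6.40 CPM against 0.925 to 1.23 CPM elsewhere. Akr1c13 stood at a log2 fold change of 0.94 (SE 0.45) and Akr7a5 at -0.54 (SE 0.28), with an adjusted p of 0.874 for each of these 4 by edgeR.

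None of the regulators known for Akr1b7 passed the test. Nr1h2 and Nr1h3, the liver X receptors, had differences on the log2 scale of -0.83 (SE 0.43) and -0.51 (SE 0.38), and Nr1i3, a xenobiotic receptor, had -0.73 (SE 0.64) at levels under 1 CPM. The 11 tested genes had a median of -0.04. For Akr1b8, Fgf1 had 71.8, 62.6 and 149 CPM in controls, against 119 and 147 CPM in deletion-labelled libraries, while Fgf2, Fgfr1 and Fgfr2 had log2 fold changes between -0.25 and 0.16. The 4 genes had a median of -0.04.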

How the data were processed

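Sample titles gave the group and number of each library, and the series design calls the samples biological replicates. RSEM 1.3.0, STAR 2.5.3a, bcl2fastq 2.20.422 and the build GRCm38 are listed in the submitters' processing notes. For the gene annotation and strandedness of counting, they were not given in the sources used here. Per the file headers, the authors deposited expected counts, in which reads that fit several genes are shared by a model. Per the file headers, the authors also deposited TPM and an effective length for each gene.

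Expected counts were rounded, filtered with filterByExpr, scaled by TMM and tested by edgeR 4.0.16 (R 4.3.3, quasi-likelihood) over 18590 genes, fitting group alone, at a Benjamini-Hochberg threshold of 0.05. Alternatives used limma 3.58.1, DESeq2 1.42.0, other scalings, filters and left-out libraries. An exact test of 3 against 2 cannot give a two-sided p below 0.2. Symbols matched 99.5% of identifiers, and GENCODE M21 holds 99.5%. Transcripts were aligned with BLAST+ 2.17.0.

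The members, the 8 pathway lists and the 13 marker lists were chosen with earlier results of these data known. Named genes are the members, up to 4 genes of each pathway list with the smallest p, the 3 genes most alike to each member, and the genes of the cluster with its flanks. Further pathway genes, namely Ptgs2, Slco2a1, Ptgfr, Sord, Nfat5 and Akr1a1, and the marker genes given were named after their values were seen. Some genes of these lists are not reported here.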

Additional observations from a re-analysis of the deposited data

How the results depend on the processing

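Of 18 alternatives each, the sign of the log2 fold change held in 18 for Akr1b8, 17 for Akr1b7 and 15 each for Akr1b3 and Akr1b10, and no member but Akr1b7 passed the threshold in any. Scaling by library size only gave 0.29 for Akr1b3 and 0.39 for Akr1b10, where the median of all genes moved to 0.585. On log2(TPM + 1), with a median of 0.87, the values were 1.16 for Akr1b3, 1.14 for Akr1b10 and 5.67 for Akr1b7, and on log2(TPM + 0.1), with a median of 1.33, they were 1.17, 1.23 and 6.32. Akr1b8 stood at 1.25 and 1.98 on these scales (adjusted p = 0.0725 and 0.104 by limma). Akr1b7 passed in both TPM fits (adjusted p = 5.98e-07 and 3.08e-09 by limma), which replaced its own residual SD of 3.88 and 4.34 by a pooled one of 1.01 and 0.99. These fits called 2234 genes higher and 60 lower with a pseudocount of 1, and 686 and 47 with 0.1.

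DESeq2 called 20 genes higher and 59 lower and gave no p for Akr1b7, and edgeR with no low-count filter called 2 higher. With 1 library left out, 0 to 15 genes were called higher and 0 to 33 lower, the most without control replicate 3, and Akr1b7 ranged from 0.14 without Ghr deletion replicate 2 to 7.65 without control replicate 3. With control replicates 1 and 2 left out together, Akr1b7 was -0.19, with 1 control assumed to vary like the other libraries. Summed TPM was 657.8 higher in the libraries labelled Ghr deletion, and 407.1 to 908.5 higher with 1 library left out.

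The replicate block gives control replicate 3 a term of its own and so drops it. It called 552 genes higher and 574 lower, with Akr1b7 at 7.66 (adjusted p = 1.7e-06 by edgeR). Same-numbered libraries had deviations that correlated at 0.28 and 0.30, but with 2 pairs and no shared source in the labels they share only a number. Relative to the level, counting error was widest for Akr1b8 and the 2 lowest Akr1b7 libraries. For Akr1b7 it was still small beside the range over libraries. For Akr1b8 the Poisson 95% interval of control replicate 2, 0.831 to 1.9 CPM, lay below that of control replicate 1, 4.74 to 7.17 CPM.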
